A study of Mus musculus with 6 samples.

Results

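The enzymes described here convert steroids, aldehydes and foreign compounds. Their probes were found by gene family name, and the families were chosen with earlier results of these data known. Members are all probes with a single gene symbol of the cytochrome P450 (Cyp), flavin monooxygenase (Fmo), aldehyde dehydrogenase (Aldh), alcohol dehydrogenase (Adh), aldo-keto reductase (Akr), hydroxysteroid dehydrogenase (Hsd), carboxylesterase (Ces), glutathione S-transferase (Gst), glucuronosyltransferase (Ugt) and sulfotransferase (Sult) families. Cyp51 and Hsd17b7 were left out. The rule found 140 of the 21888 probes on the array, and these stand for 92 of the 11023 genes named on it. Of the 140 probes, 137 had a value on at least 4 of the 6 arrays and were tested, for 90 genes. The other 3, for Adh6-ps1, Cyp2c65 and 1 of 2 Akr7a5 probes, had values on 3, 3 and 2 arrays and were not tested.

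The RNA came from the pancreas of Sox4-/- mouse embryos and of their wild-type littermates, dissected at embryonic day 12.5. Sox4 encodes a transcription factor, one of the SoxC proteins, and the question was how its loss changes gene expression in the forming pancreas. On each of 6 spotted arrays, channel 2 held the knockout RNA and channel 1 the wild-type RNA, per the labels, and the value per probe is the log2 ratio of the channels. The ratio is read as knockout over wild type, so a negative value means a lower signal in the RNA labelled knockout. That direction is only likely, because it rests on the channel order and no source used here names the dyes. The label of arrays 1 and 2 says that organs were pooled into 2 groups before RNA isolation and that the RNA was amplified before labelling. The 6 arrays may therefore be repeats of 1 pool of each genotype, and the spread between arrays behind each p-value may be technical only. No dye swap is stated, so a bias of a probe towards 1 channel and a difference between the RNAs cannot be told apart. The sources used here give no strain, sex or number of embryos.

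Drug and steroid metabolism runs in steps. Oxidising and reducing enzymes (Cyp, Fmo, Adh, Aldh, Akr, Hsd) first add or change an oxygen group, and Ces enzymes cut esters. Transferases (Gst, Ugt, Sult) then attach glutathione, a sugar acid or sulfate, so that the product can leave the cell. Liver, gut and steroid-producing glands are the richest sources of these enzymes, and several of them also make or clear retinoic acid, a signal in pancreas development.

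The Sox4 probes did not check the direction. Probe MMC02H11 had log2 ratios of -0.15, 0.41, -0.35, 0.01, -0.01 and -0.06 on arrays 1 to 6, and probe MMC03H11 had -0.06, -0.03, -0.35, -0.01, -0.10 and 0.00. Their means were -0.03 and -0.09, and neither passed the test (limma adjusted p 0.892 and 0.446). No source used here places them inside or outside the deleted sequence. Across all probes, arrays 1 and 2 had a Spearman correlation of 0.52, and arrays 3 to 6 ranged from 0.44 to 0.58 among themselves, against 0.06 to 0.32 between these sets, so both sets are given below.

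The probes past the threshold belong to 13 genes, most of them glutathione S-transferases and aldo-keto reductases. Of the 137 tested probes, 9 were higher and 12 were lower in the RNA labelled knockout at a limma adjusted p under 0.05, which is 15.3% of them, against 5.49% of all tested probes. On the whole array 1.96% of probes passed above 0 and 3.53% under 0. Of the 9 higher probes, 8 belong to 1 gene, Gsta4, and 1 to Gstcd. The 12 lower probes belong to 11 genes: Hsd3b1, Akr1c19, Akr1c21, Akr1c12, Akr1c13, Akr1e1, Aldh6a1, Gsta2, Gstt1, Gsta3 and Cyp2c55. Probes of 1 gene are not independent, and with Gsta4 left out 10.2% of the remaining 127 probes passed. With 1 value per gene, 2 of 90 genes passed above 0 and 9 under 0, or 12.2%, against 5.82% of all genes (2.36% above 0 and 3.47% under 0). Of the 9, Akr1c19, Akr1c12, Akr1c13, Akr1c21 and Akr1e1 lie in 1 cluster of related genes on chromosome 13. Their probes may bind each other's transcripts, which was not tested, so this share may count 1 signal several times.

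The enzymes together showed no common direction. The median log2 ratio of the tested members was 0.02, against 0.03 over all tested probes, and 73 member means lay above 0 and 64 under 0. Of the 137 tested member probes, every measured array was above 0 for 20 and under 0 for 22, while 10.2% and 12.3% of all probes had such runs. Of the 20, 10 were probes of the single gene Gsta4 and are not independent. Without centring of the arrays, which gives a median over all probes of 0.129 in place of 0.026, 13 members passed above 0 and 10 under 0. Quantile normalization gave 14 and 12.

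The number of calls depended on having all arrays. Without array 1, 2, 3, 4, 5 or 6, the members past the threshold numbered 0, 11, 0, 0, 0 and 0 above 0 and 1, 10, 2, 0, 0 and 0 under 0. Over all 21247 probes the calls numbered 16, 849, 32, 10, 8 and 13 in these fits, against 1166 with all arrays, so the loss is one of the whole array. At an unadjusted limma p under 0.05 the members numbered 47 with all arrays (27.6% of all probes passed at that level) and 44 to 48 in these fits. Akr1c19 passed in 3 of the 6 fits, without array 1, 2 or 3, and Akr1c12 passed in 2. No called probe passed without array 4, 5 or 6. In these fits the mean of Gsta4 ZX-00142C06 stayed within 0.70 to 0.81 and Hsd3b1 within -2.48 to -2.18.

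**Figure D1:**
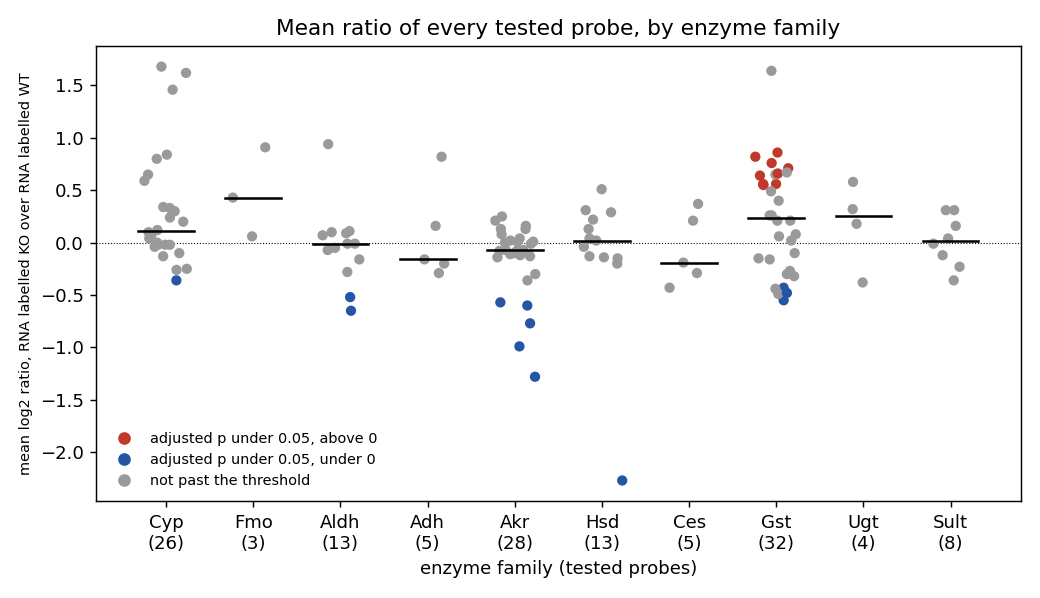
Mean log2 ratio of each of the 137 tested probes (vertical axis, RNA labelled KO over RNA labelled WT) by enzyme family, with the number of tested probes in brackets. A point is a probe, a bar is the family's median, and colour marks adjusted p under 0.05. The Gst family holds the 9 probes called above 0, and the lowest point is Hsd3b1 at -2.27.

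**Figure D2:**
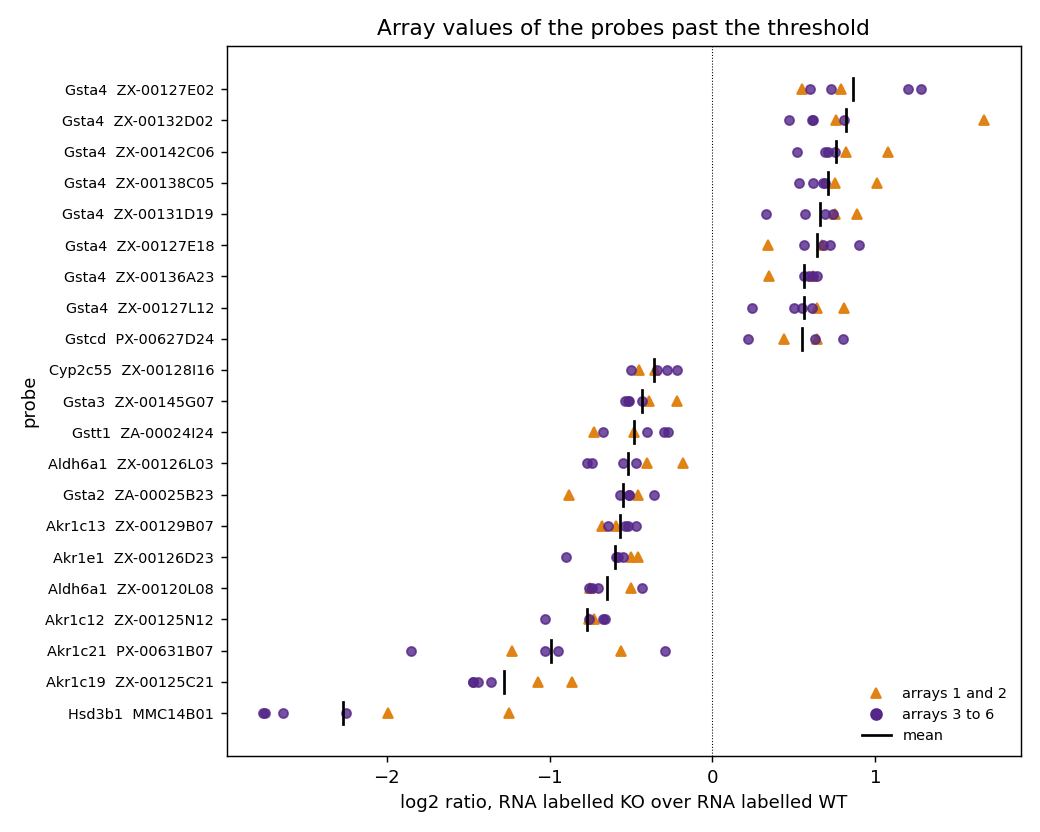
Log2 ratio (horizontal axis, RNA labelled KO over RNA labelled WT) on every array for the 21 probes past the threshold, lowest mean at the bottom. Triangles are arrays 1 and 2, circles are arrays 3 to 6 and the bar is the mean. Each of these probes lies on 1 side of 0 on all arrays measured.

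Gsta4, a glutathione S-transferase of the alpha class that conjugates 4-hydroxynonenal, a product of lipid oxidation, was the one member gene with several probes called above 0. All of its 10 probes were above 0 on all 6 arrays, 60 of 60 values, and 8 of the 10 passed the test. Their means ran from 0.40 to 0.86, a 1.32-fold to 1.81-fold higher ratio in the RNA labelled knockout. Probe ZX-00136A23 read 0.62, 0.35, 0.62, 0.64, 0.59 and 0.56 on arrays 1 to 6, a mean of 0.56 ± 0.11 (SD, n = 6; limma adjusted p 0.0211). Probe ZX-00127E02, the highest, read 0.79, 0.55, 0.73, 0.60, 1.28 and 1.20, a mean of 0.86 ± 0.31 (adjusted p 0.0274). Array 2 was the low one for both.

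The 2 Gsta4 probes that missed the threshold had the same sign, and each passed under several alternatives. ZX-00128K13 had a mean of 0.65 ± 0.41 (adjusted p 0.0586), with 1.47 on array 2 and 0.35 to 0.60 on the others. ZX-00133K03 had 0.40 ± 0.22 (adjusted p 0.0598). The median over the 10 probes was 0.71, 0.85, 0.49, 0.60, 0.65 and 0.61 on arrays 1 to 6. Single probes ran from 0.34 to 1.67 on array 2 and from 0.38 to 0.82 on array 1. Per the probe names, the 10 probes come from 8 source plates, and the fit with 1 value per gene gave 0.66 with an adjusted p of 0.0151.

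Other alpha-class transferases, which also conjugate electrophilic compounds, were on the opposite side. Gsta2, on chromosome 9 as Gsta4 is, read -0.46, -0.88, -0.51, -0.36, -0.51 and -0.57, a mean of -0.55 ± 0.18 (SD, n = 6; limma adjusted p 0.0302). Gsta3, which in mouse detoxifies aflatoxin epoxide, read -0.39, -0.22, -0.51, -0.52, -0.54 and -0.43 at probe ZX-00145G07, a mean of -0.43 ± 0.12 (adjusted p 0.0317). All arrays were under 0 at both probes. The other Gsta3 probe had 0.21 ± 1.60 (n = 5), with arrays on both sides of 0 and 100% of its values quotients of small whole numbers, as defined below. With both Gsta3 probes averaged, the gene did not pass. A well next to Gsta3 ZX-00145G07 on its source plate also passed under 0, at -0.61, and it was the only one of 39 wells next to a called probe that did.

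Gstt1, a theta-class transferase that acts on small halogenated compounds, read -0.48, -0.73, -0.67, -0.40, -0.27 and -0.30, a mean of -0.48 ± 0.19 (adjusted p 0.0373). It missed the threshold without centring of the arrays, at -0.37 (adjusted p 0.0661). Gstk1, the kappa-class enzyme of mitochondria and peroxisomes, read 0.46, 0.08, 0.93, 0.44, 0.43 and 0.62, a mean of 0.49 ± 0.28. Its adjusted p of 0.0531 was the nearest to the threshold from outside, and it passed under 7 alternatives, with quantile normalization (0.0390) among them. In the mu class (Gstm2, Gstm4, Gstm5, Gstm6 and Gstm7) no probe passed, and means ran from -0.44 for Gstm6 to 0.26 for Gstm4 and Gstm5.

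Gstcd, a protein with a domain like the C-terminal part of glutathione transferases, had 3 probes with means above 0. Probe PX-00627D24 read 0.64, 0.44, 0.22, 0.63 and 0.80 on arrays 1 to 5, a mean of 0.55 ± 0.22 (n = 5; limma adjusted p 0.0467), and was at the ceiling of the scale on array 6. The ceiling was treated as missing, and with it kept the probe did not pass (adjusted p 0.416). PX-00624H17 had 1.64 ± 1.09 (adjusted p 0.0570, and 0.0372 with quantile normalization) and ZX-00144B18 had 0.67 ± 0.91 (adjusted p 0.222). Of the values of these 3 probes, 80%, 83.3% and 100% were quotients of whole numbers up to 20 within 0.0006 on the log2 scale. Ratios of small whole-number intensities take such values. Most values were such quotients at 10.9% of the tested members and 12% of all tested probes. The Gsta4 probes reached at most 33.3%.

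**Figure D3:**
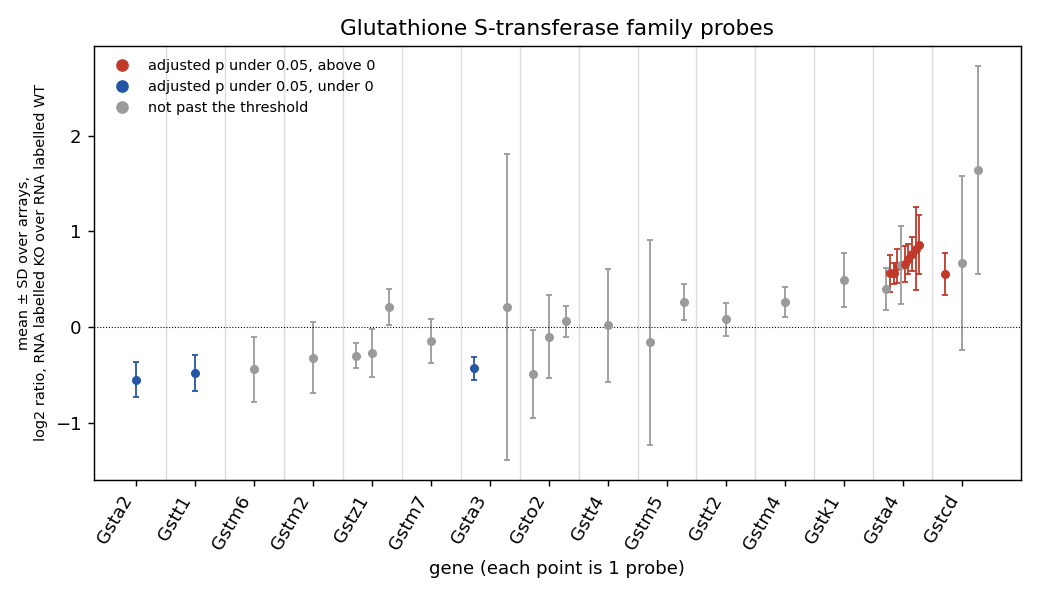
Mean log2 ratio with SD over arrays (vertical axis, RNA labelled KO over RNA labelled WT) for each glutathione S-transferase probe, grouped by gene in order of the gene's median. Colour marks adjusted p under 0.05. The 10 Gsta4 probes lie between 0.40 and 0.86, while Gsta2, Gstt1 and 1 of 2 Gsta3 probes are called under 0.

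Aldo-keto reductases of the Akr1c group, which reduce ketones and aldehydes and in several cases act on steroids, had several neighbouring genes called under 0. In the RefSeq order of chromosome 13, Akr1c13, Akr1c19 and Akr1c12 follow each other, and Akr1c20, Akr1c21 and Akr1e1 come further along the same cluster. Akr1c14, Akr1c18 and Akr1c6, also in the cluster, have no member probe here. Of the 6 cluster genes measured, 5 had a probe past the threshold under 0, while 3.53% of all probes and 3.47% of all genes passed under 0.

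Akr1c19 read -1.07, -0.86, -1.47, -1.36, -1.44 and -1.47 on arrays 1 to 6, a mean of -1.28 ± 0.26 (SD, n = 6; limma adjusted p 0.0111). This is a 2.43-fold lower ratio in the RNA labelled knockout, with arrays 3 to 6 (mean -1.44) lower than arrays 1 and 2 (mean -0.96). Akr1c12 read -0.76, -0.73, -1.03, -0.66, -0.76 and -0.67, a mean of -0.77 ± 0.14 (adjusted p 0.0127). Akr1c13 read -0.59, -0.68, -0.47, -0.52, -0.64 and -0.54, a mean of -0.57 ± 0.08 (adjusted p 0.0197). Akr1c19 was the lowest of these 3 on all 6 arrays, and Akr1c12 lay under Akr1c13 on all 6. Akr1c21, a reductase that in mouse makes 17-alpha-hydroxysteroids, read -0.56, -1.23, -0.29, -0.95, -1.85 and -1.03. Its mean was -0.99 ± 0.54 (adjusted p 0.0433), and its arrays spread more widely than those of the other genes of the cluster.

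Akr1e1, which reduces 1,5-anhydrofructose, a sugar formed from glycogen, was at -0.60 ± 0.16 at probe ZX-00126D23 (adjusted p 0.0251). Its other probe, ZA-00024H10, was at -0.36 ± 0.21 and missed the threshold (adjusted p 0.0686), and all 6 arrays were under 0 at both. Akr1c20 was the exception in the cluster: it read 0.06, 0.12, -0.11, -0.26, -0.28 and -0.22, with arrays 1 and 2 above 0, arrays 3 to 6 under 0 and a mean of -0.12.

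These genes are close copies of each other, and how far a spotted probe of one also binds the transcript of another was not tested. Their promoters, the only sequence at hand, were compared. They lie mostly before the start of the transcript, so their likeness cannot show whether a probe binds another transcript. Between Akr1c13 and Akr1c12, 93.4% of the aligned positions of the promoters were identical, against 58.8% between Akr1c13 and Akr1c19 and 45.4% between Akr1c13 and Akr1c21. Promoters of unrelated members were at the same level as the lowest of these, with 49.1% between Akr1c13 and Gsta2 and 46.7% between Akr1c13 and Cyp2c55. The promoters of the 4 Akr1c genes are printed from 250 bases before to 50 bases after the RefSeq start (GRCm38.p6), 5′ to 3′ on the gene's strand. Capitals mark a match, on either strand, to the motifs AACAAT (a core bound by Sox factors), TGACNNNGC (the antioxidant response element), GCGTG (the core of the xenobiotic response element) or TATAAA (the TATA box).
Akr1c13, chr13:4190937-4191236, plus strand: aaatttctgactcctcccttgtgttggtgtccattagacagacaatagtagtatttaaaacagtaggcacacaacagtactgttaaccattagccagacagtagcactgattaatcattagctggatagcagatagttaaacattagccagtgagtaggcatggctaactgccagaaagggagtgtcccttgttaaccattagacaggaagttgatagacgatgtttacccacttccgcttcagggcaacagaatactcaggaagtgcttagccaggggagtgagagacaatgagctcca
Akr1c19, chr13:4233490-4233789, plus strand: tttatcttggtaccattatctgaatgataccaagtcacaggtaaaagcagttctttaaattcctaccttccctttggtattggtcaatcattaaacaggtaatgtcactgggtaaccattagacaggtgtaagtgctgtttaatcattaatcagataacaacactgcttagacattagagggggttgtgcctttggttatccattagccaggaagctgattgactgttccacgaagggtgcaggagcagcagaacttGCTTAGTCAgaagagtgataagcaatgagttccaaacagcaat
Akr1c12, chr13:4279350-4279649, minus strand: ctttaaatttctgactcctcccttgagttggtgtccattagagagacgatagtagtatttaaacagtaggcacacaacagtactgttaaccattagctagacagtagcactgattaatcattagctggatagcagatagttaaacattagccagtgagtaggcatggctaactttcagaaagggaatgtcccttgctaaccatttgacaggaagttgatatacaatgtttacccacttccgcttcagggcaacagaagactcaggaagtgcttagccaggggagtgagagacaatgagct
Akr1c21, chr13:4573825-4574124, plus strand: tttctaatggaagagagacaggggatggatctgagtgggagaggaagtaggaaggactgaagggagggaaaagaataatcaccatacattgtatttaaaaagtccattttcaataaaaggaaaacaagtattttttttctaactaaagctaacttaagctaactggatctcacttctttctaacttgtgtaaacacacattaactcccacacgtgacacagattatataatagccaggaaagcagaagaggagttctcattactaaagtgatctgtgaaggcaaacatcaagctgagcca
Among these 4 windows, that of Akr1c19 alone held a match, to the antioxidant response element, 8 bases into the transcript side of the start. The motifs occurred in 10.7%, 12.4%, 32.4% and 13.6% of all 32851 RefSeq promoters of this length, in the order given above, and the motifs can overlap. Promoters were found for 76 of the 92 member genes, and 9.68%, 14%, 23.7% and 20.4% of their 93 windows held these motifs. A match is a stretch of letters and says nothing on whether a factor binds there.

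**Figure D4:**
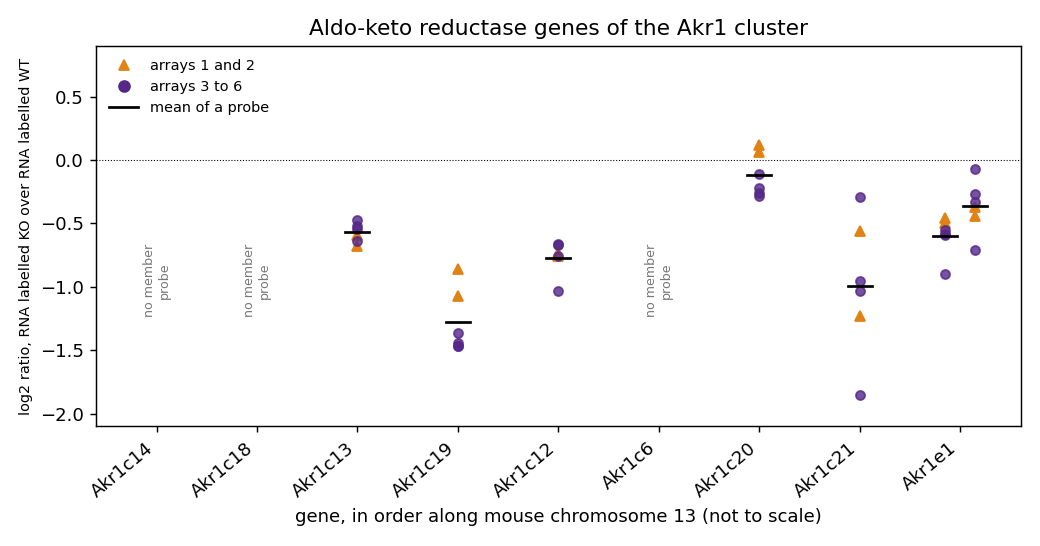
Log2 ratio (vertical axis, RNA labelled KO over RNA labelled WT) on every array for the Akr1 genes in their order along chromosome 13, not to scale. Triangles are arrays 1 and 2, circles are arrays 3 to 6, and a bar is the mean of a probe, with 2 probes for Akr1e1. Akr1c20, at -0.12, is the only measured gene with arrays above 0.

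No reductase outside this cluster passed. Akr1a1, an aldehyde reductase used in vitamin C synthesis in mouse, had 16 tested probes from 7 source plates with means from -0.14 to 0.16, and none passed. Akr1b10 had 3 probes from -0.07 to 0.25. The probe at 0.25 was above 0 on all 6 arrays but missed the threshold (limma adjusted p 0.0973). Akr1cl was at -0.30 with an adjusted p of 0.0755.

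The symbol Hsd3b1 stands for the enzyme that turns pregnenolone-type steroids into progesterone-type steroids, and its probe had the lowest mean of all members. It read -1.99, -1.25, -2.76, -2.75, -2.25 and -2.64 on arrays 1 to 6, a mean of -2.27 ± 0.59 (SD, n = 6; limma adjusted p 0.0126), or a 4.83-fold lower ratio in the RNA labelled knockout. It was the lowest of the 21 called probes on all 6 arrays, and array 2 was its mildest. The Entrez ID that the platform annotation gives for this probe is not in the mouse RefSeq table, where Hsd3b1 has another ID, so the symbol is the annotation's. The sequence on this spot may not be a mouse one, and which transcript it measures was not tested. The Hsd3b genes are close copies, and the one other Hsd3b probe, for Hsd3b3, was at 0.29 with arrays on both sides of 0. The well next to the Hsd3b1 probe holds Star, a cholesterol carrier of steroid-making cells, at -0.05 ± 0.16 (n = 5). Quotients of small whole numbers made up 60% of the values of this Star probe.

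No other steroid dehydrogenase passed. Hsd17b1, which makes oestradiol, was at 0.02 ± 0.39, and Hsd17b2, which inactivates it, was at 0.22 ± 0.24 (SD, n = 6 each). Hsd17b10, a mitochondrial enzyme, had probes at 0.13 and -0.04, and Hsd17b4, of peroxisomal fatty acid breakdown, was at 0.51 ± 1.09 (n = 4). Of the 31 steroid, retinoid and detoxifying enzymes picked by name, 11 had a tested probe. Cyp11a1, Cyp17a1, Cyp19a1, Cyp21a1, Cyp11b1, Hsd11b1 and Hsd11b2, further steps of steroid hormone synthesis or control, were not among them and were not analysed here.

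Aldh6a1, the mitochondrial enzyme that breaks down the semialdehyde from valine, was the one aldehyde dehydrogenase with probes past the threshold. Probe ZX-00120L08 read -0.50, -0.75, -0.70, -0.43, -0.76 and -0.74, a mean of -0.65 ± 0.15 (limma adjusted p 0.0207). Probe ZX-00126L03 read -0.40, -0.18, -0.74, -0.47, -0.55 and -0.77, a mean of -0.52 ± 0.22 (adjusted p 0.0385). The third probe, ZA-00029F01, lay on the other side on every array measured, at 0.49, 1.80, 1.13, 0.66 and 0.61 on arrays 1 to 5, a mean of 0.94 ± 0.54 (n = 5; adjusted p 0.0606). It passed above 0 under 4 alternatives: scale normalization (limma adjusted p 0.0224), quantile normalization (0.0458), array weights (0.0357) and removal of quotient probes (0.0452). The annotation lists the sequence IDs of both other probes under this one, so probes assigned to the same transcript disagreed. Their mean was -0.17 and did not pass (adjusted p 0.433), so the direction of Aldh6a1 depends on the probe.

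The remaining aldehyde and alcohol dehydrogenases did not pass. Aldh1b1, a mitochondrial enzyme that in mouse marks pancreatic progenitor cells, was at 0.07 ± 0.10 (SD, n = 6), with 4 arrays above 0 and 2 under. Adh5, which clears formaldehyde bound to glutathione, had probes at 0.16 ± 0.21 and 0.82 ± 1.25. Adh7, an enzyme that oxidises retinol in the stomach, had probes at -0.20 ± 0.63 and -0.29 ± 0.27. The retinoic acid enzymes Aldh1a1, Aldh1a2, Aldh1a3, Cyp26a1, Cyp26b1 and Cyp26c1 had no member probe and were not analysed here.

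Among 26 tested probes of cytochromes P450, the haem enzymes that insert oxygen, 1 passed, or 3.85%, against 5.49% of all tested probes. Cyp2c55, a fatty acid and drug oxidase, read -0.35, -0.45, -0.22, -0.28, -0.34 and -0.50, a mean of -0.36 ± 0.10 (SD, n = 6; limma adjusted p 0.0390), all under 0 and a 1.28-fold lower ratio. It missed the threshold without centring, at -0.25 (adjusted p 0.0757), and with the array set as a term, at -0.37 (adjusted p 0.0508). Its promoter and that of Gsta3 are shown because they hold several Sox-core matches and an antioxidant response element (windows and capitals as above). The Gsta2 window, not printed, held a match to the Sox core, the xenobiotic response element core and the TATA box.
Cyp2c55, chr19:39006769-39007068, plus strand: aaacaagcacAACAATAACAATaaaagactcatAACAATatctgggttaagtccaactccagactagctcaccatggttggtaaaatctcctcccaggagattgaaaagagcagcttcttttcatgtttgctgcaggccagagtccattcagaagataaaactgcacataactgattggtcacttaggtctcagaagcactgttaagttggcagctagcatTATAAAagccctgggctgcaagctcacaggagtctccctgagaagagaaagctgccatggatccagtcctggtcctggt
Gsta3, chr1:21240335-21240634, plus strand: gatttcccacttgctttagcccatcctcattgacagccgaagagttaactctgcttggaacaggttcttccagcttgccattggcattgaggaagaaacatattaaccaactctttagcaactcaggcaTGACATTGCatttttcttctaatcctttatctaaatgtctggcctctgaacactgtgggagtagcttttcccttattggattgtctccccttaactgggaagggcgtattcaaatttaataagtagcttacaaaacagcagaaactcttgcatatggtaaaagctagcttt
In the Cyp2c55 window, AACAAT matched at positions -240, -234 and -217 from the start, and TATAAA at -29. The matches at -240 and -234 lie end to end. These windows were picked for their matches, while the Sox core was held by 9.68% of member windows and 10.7% of all promoters. In the Gsta3 window the antioxidant response element began at -121.

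The highest P450 ratios came with wide spread. Cyp2d13 was at 1.68 ± 1.25 (n = 5; adjusted p 0.0916), from -0.49 on array 2 to 1.84 and above on the others measured. Without array 2 it was at 2.22 and passed (limma adjusted p 0.0304), as it did with array weights, at 2.03 (adjusted p 0.0260). However, 80% of the values of this Cyp2d13 probe were quotients of small whole numbers. Cyp2u1, which read 3.59, 0.77, 0.58, 1.80 and 1.37 on arrays 1, 2, 4, 5 and 6, was at 1.62 ± 1.20 (adjusted p 0.0904). Of the 7 P450 probes at 0.5 or more, 5 had mostly quotients of small whole numbers and none passed. Of the 16 member probes on source plate ZA-00031, 11 were P450s, and on that plate 40.8% of all tested probes had mostly such quotients. No P450 probe was at -0.5 or under. Over all families, 24 member probes were at 0.5 or more, of which 9 had mostly such quotients and 9 passed. Without Gsta4 these numbers were 15, 9 and 1. None of the 9 member probes at -0.5 or under had mostly such quotients, and all 9 passed. Cyp1b1, an oestrogen and retinoid oxidase, had probes at 0.33 ± 0.44 and -0.10 ± 0.38, and Cyp2s1, an epithelial P450, was at -0.26 ± 1.04.

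No probe of the Fmo, Ces, Ugt and Sult families passed, with 3, 5, 4 and 8 probes tested. Over the whole array 5.49% of probes passed, so with so few probes the lack of calls says little of these families. Fmo2, a monooxygenase of lung, had probes at 0.91 ± 2.36 (n = 4) and 0.06 ± 0.22. Among carboxylesterases the extremes were Ces1h at 0.37 ± 0.34 and Ces2f at -0.43 ± 0.37. Ces2f was under 0 on all 6 arrays. Ugt2a3 was also under 0 on all 6 arrays, at -0.38 ± 0.37, and Ugt2b37 was at 0.58 ± 0.69. Sult1a1, the phenol sulfotransferase, read -0.65, -0.74, -0.02, -0.22, -0.31 and -0.20, with arrays 1 and 2 the lowest and an adjusted p of 0.106. With the array set as a term it was at -0.44 and passed (limma adjusted p 0.0440). Sult4a1, a brain form, had its highest probe at 0.31 ± 0.83 (n = 4).

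Other genes of the same reactions moved on both sides. Of 35 listed enzymes and cofactors, 20 were measured by 38 probes, with a median probe mean of -0.04. Counted if any probe passed, 4 genes passed above 0 and 3 under 0, by 4 and 3 probes. Over the whole array, 5.49% of probes passed, 1.96% above 0 and 3.53% under 0. With 1 value per gene, 5.82% of all genes passed, 2.36% above 0 and 3.47% under 0. That share is not a like count, because probes of a gene are averaged in it. Nat2, an arylamine acetyltransferase, was at -0.51 ± 0.13, Ephx1, the microsomal epoxide hydrolase, at -0.48 ± 0.25, and Mgst1, a membrane-bound glutathione transferase, at -0.37 ± 0.06 (n = 5). Above 0 were Cyb5r3, which reduces cytochrome b5, at 0.57 ± 0.22, Gpx1, a glutathione peroxidase, at 0.48 ± 0.26, Txnrd1, a thioredoxin reductase, at 0.37 ± 0.15, and Tpmt, a thiopurine methyltransferase, at 0.29 ± 0.08. Their limma adjusted p ran from 0.0277 for Nat2 to 0.0499 for Tpmt. The second probe of Cyb5r3 was at -0.10, and other probes of Gpx1 and Tpmt reached -0.04 and -0.07, so these genes passed at 1 probe each. None of 7 measured xenobiotic and antioxidant regulators passed, Ahr, the dioxin receptor, having the smallest adjusted p (0.0614, at -0.28 ± 0.11). The same held for 2 efflux pumps, 5 steroid partner genes and 9 retinoid partner genes.

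Markers of other cell types moved as well, and levels are not used here because the values are ratios. Over the whole array, 1.96% of probes passed above 0 and 3.53% under 0. With 1 value per gene, 2.36% of genes passed above 0 and 3.47% under 0. A marker below is counted if any of its probes passed. That favours genes with many probes, so the shares of genes are not a like measure. Of 11 measured liver markers (18 probes, list of 16), 6 passed under 0, at 9 probes, and none above. The median probe mean was -0.46, and array medians ran from -0.63 to -0.44. The widest gap was at Afp, the fetal albumin-like protein, with 3 of its 4 probes between -2.06 and -1.90 and the other at 0.01. Alb, the albumin gene itself, was at -0.29 and did not pass. Of 7 measured endothelium and macrophage markers (8 probes), Fabp4 (-1.34), Lyve1 (-0.74) and C1qa (-0.40) passed under 0 at 1 probe each. The list median was -0.27. C1qb (0.06), Emcn (-0.05), Cd68 (-0.06) and Csf1r (-0.13) did not pass, nor did another Lyve1 probe, at -1.05 ± 1.14 (n = 5). Among steroid gland markers, Star had probes at 0.35 ± 0.50 (SD, n = 6), -0.05 ± 0.16 (n = 5) and -0.70 ± 1.59 (n = 5). Nr5a1 was at -0.13 ± 1.34 (n = 5), and none of these probes passed the threshold. At the Star probes at -0.05 and -0.70, 60% of the values were quotients of small whole numbers. Of 6 measured pancreatic epithelium genes (11 probes), 1, Cpa1, passed under 0 with 3 probes between -0.50 and -0.41. The median probe mean of that list was 0.05, and its probe means ran from -0.50 to 0.73. None of 6 gut markers passed. Of 6 erythroid and 7 mesenchyme markers, 1 each passed, Hba-a1 above 0 at 1 probe (0.40) and Sparc under 0 at 1 probe (-0.31). The other Hba-a1 probes ran from -0.39 to 0.05, and the other Sparc probe was at -0.30, none past the threshold. The part of these cell types in the lower Akr1c, Hsd3b1 and Gst ratios was not tested. In such bulk RNA, fewer cells of a type and less RNA per cell cannot be told apart.

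Each called member lies on 1 side of 0 on every array measured, so both sets of arrays have the same sign by that choice, and only the sizes are described. Hsd3b1 had means of -1.62 on arrays 1 and 2 and -2.60 on arrays 3 to 6, Akr1c12 had -0.75 and -0.78, and Akr1c13 had -0.63 and -0.54. Gsta4 ZX-00142C06 had 0.95 and 0.67. With arrays 3 to 6 alone, Hsd3b1 and Akr1c19 passed (limma adjusted p 0.0272 each), and with arrays 1 and 2 alone 0 members did (31 at an unadjusted p under 0.05). Over all probes these fits called 11 and 0. With the array set as a term, 8 members passed above 0 and 11 under 0. Over all tested members the sets had the same sign for 82 of 137 probes, or 59.9%, against 58.6% of all probes.

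**Figure D5:**
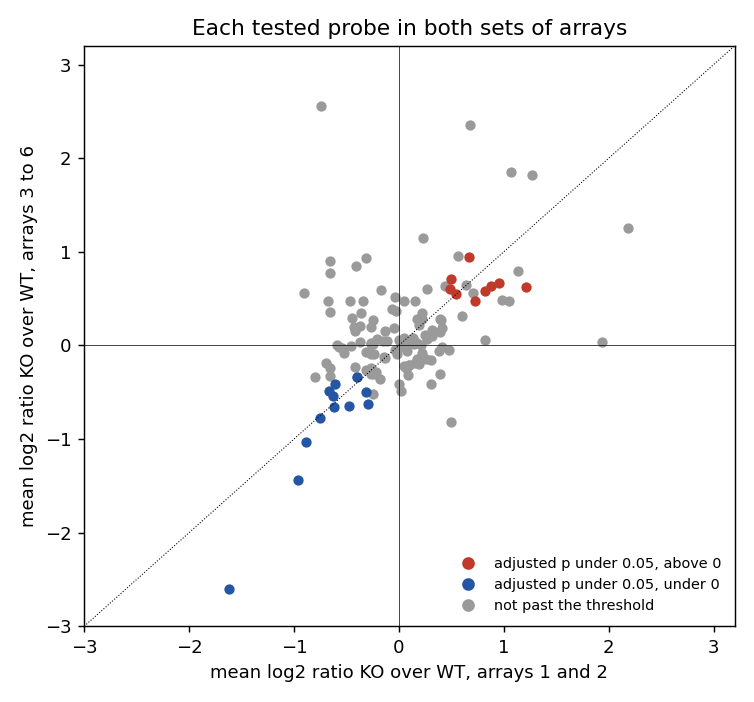
Mean log2 ratio (RNA labelled KO over RNA labelled WT) on arrays 1 and 2 (horizontal axis) and on arrays 3 to 6 (vertical axis) for the 137 tested probes. The dotted line marks equal values, and colour marks adjusted p under 0.05 over all 6 arrays. Called probes lie in the lower left and upper right, and the lowest is Hsd3b1 at -1.62 and -2.60.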

How the data were processed

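Two-channel log2 ratios of 21888 probes on 6 arrays were taken from the authors' deposited table. The base of the logarithm was set by the values, since the ceiling of 16.61 is log2 of 100000. The sources used here name no scanner, background correction, normalization or direction. The medians of the deposited log2 values, ceiling left out, were -0.007, 0.076, 0.139, 0.07, 0.198 and 0.143 on arrays 1 to 6, so any centring by the authors stays unknown. Signal over background is unknown, and the number of arrays limits the precision. Each array lacked 439 to 1654 values, and 40 to 257 ceiling values were treated as missing. After subtraction of each array's median, the 21247 probes with at least 4 values were fitted with limma 3.58.1 in R 4.3.3 (lmFit, eBayes, intercept only, two-sided). P-values were adjusted by Benjamini-Hochberg over all probes, with a threshold of 0.05.

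Gene symbols came from the platform annotation (18388 probes with 1 symbol, 66 with several, 3434 with none), and Entrez IDs matched RefSeq genes for 138 of 140 members. Promoters are RefSeq's (GRCm38.p6), compared with Biopython 1.88. Figures used matplotlib 3.10.9. Named were all probes past the threshold and every other probe of their genes, each family's highest and lowest probe, 31 enzymes fixed by name, the 3 members on each side of the threshold and called genes of the partner and marker lists. Gstm2, Gstm4 to Gstm7, Akr1c20, Akr1cl, Hsd3b3, Cyp2u1, Ahr, Star, Nr5a1, C1qb, Emcn, Cd68, Csf1r and further probes of list genes were named after their values were seen. The members and lists were chosen with earlier results of these data known. The fit was repeated with no centring, with quantile or scale normalization, with stricter and looser rules on missing values, with the ceiling kept, array weights, robust eBayes, 1 value per gene or the array sets, without probes of mostly quotient values, and without each array. Arrays 1 and 2 alone were added after seeing the data.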

Additional observations from a re-analysis of the deposited data

Results flagged for a closer look

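Each of the 68 named probes, and the median of all members, was checked for a single array separated from the rest by most of its range. The limit is set so that chance passes about 1 in 20 groups of independent values. Of the 69, 13 passed, 9 of them for array 2, and many are probes of 1 gene that are not independent, so no excess over chance is read from this count.

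On array 2, 4 Gsta4 probes stood apart: ZX-00128K13 was at 1.47 against 0.35 to 0.60 on the others, ZX-00132D02 at 1.67 against 0.47 to 0.81, ZX-00133K03 at 0.82 against 0.13 to 0.38, and ZX-00136A23 at 0.35 against 0.56 to 0.64. The first 3 were high and the last was low. Also on array 2, Cyp1b1 PX-00623H11 was at -0.75 against -0.03 to 0.22, Cyp2d13 ZA-00031P13 at -0.49 against 1.84 to 2.56, and Ugt2a3 ZX-00128M10 at -1.13 against -0.34 to -0.12. Akr1a1 ZX-00138C14 was at 0.70 on that array against -0.18 to 0.13, and Hsd17b10 ZX-00142P01 at 0.86 against -0.24 to 0.12. Array 2 had the largest median absolute deviation over all probes, 0.367, against 0.182 to 0.298 on the others.

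On array 3, Akr1c12 ZX-00125N12 was at -1.03 against -0.76 to -0.66 and Akr1e1 ZX-00126D23 at -0.90 against -0.59 to -0.46. Ces2f ZX-00131J03 was at -1.14 on array 6 against -0.42 to -0.11. Akr1a1 ZX-00136I09 was at 0.10 on array 1 against -0.15 to -0.07.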

How the results depend on the processing

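The 9 member probes called above 0 became 14 with quantile normalization or array weights, and 2 genes with 1 value per gene. With arrays 3 to 6 alone or arrays 1 and 2 alone they numbered 0 (28 and 16 above 0 at an unadjusted limma p under 0.05). The 12 called under 0 became 2 with arrays 3 to 6 alone and 0 with arrays 1 and 2 alone (24 and 15 under 0 at an unadjusted p under 0.05). Over all probes these fits called 11 and 0, so the counts say nothing particular of the members. When 1 array was left out, calls ranged from 0 to 11 above 0 and from 0 to 10 under 0, and member medians from 0.015 to 0.054. The median over members of 0.018 became 0.121 without centring, which moved the median over all probes from 0.026 to 0.129. The other alternatives kept both counts within 1.5 times. Over all probes, 416 were above 0 and 750 under 0, against 849 and 409 without centring. No named member that passed in any fit changed sign between that fit and the main one. Calls lost under other alternatives were Gstcd PX-00627D24 (scale normalization, ceiling kept, array set as a term), Akr1c21 (array set as a term), Gstt1 (no centring), Cyp2c55 (no centring, array set as a term), and Aldh6a1 and Gsta3 (1 value per gene). Gstcd PX-00627D24 had no value with all 6 arrays required and was removed with the quotient probes. Calls gained were Gsta4 ZX-00128K13 (7 alternatives), Gstk1 (7), Gsta4 ZX-00133K03 (5), Aldh6a1 ZA-00029F01 (4, above 0), Gstcd PX-00624H17 (3), Cyp2d13 (2), Akr1e1 ZA-00024H10 (1) and Sult1a1 (1), beside fits with 1 value per gene. No paired analysis was possible because each array already holds both RNAs and the arrays form 1 group. The cause of these changes was not tested.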
